A study of Mus musculus with 8 samples.

Results

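The genes described here encode molecular chaperones and protein folding enzymes, measured in mouse choroid plexus, dissected from the fourth ventricle, at embryonic day 13. They were chosen by symbol alone: Hspa, Hspb, Hsp90, Hsph, Hspd, Hspe, Dnaja, Dnajb, Dnajc or Pdia followed by a digit or letter. The 3 genes Hspbap1, Hspbp1 and Hspg2 were left out because they share a prefix but not the family. This gave 75 genes of the 18193 measured with a single symbol. A family name is not a function: Hspb11, for example, is better known as the intraflagellar transport protein Ift25. Of the 8 arrays, 4 carry the label Otx2 knockout and 4 the label wildtype, all on a mixed strain background, with no treatment and with the sex of the embryos not determined. The labels trace the knockouts to an Otx2-deficient strain and both genotypes to shared litters, and name no Cre line or driver and no number of embryos per sample. Choroid plexus is a mixed tissue, so in these bulk samples fewer cells of a type and less RNA per cell cannot be told apart.

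Values are log2 levels per probe set after RMA, and the brightest probe set stands for its gene. Array medians lay between 5.854 and 5.899 log2 units. The homeobox gene that the knockout targets, Otx2, was not lower: it read 12.44 ± 0.04 in the arrays labelled knockout and 11.97 ± 0.09 in wildtype (SD, n = 4 each). The sources used here do not give where its probes lie relative to the deleted part, so every direction below rests on the labels, and the arrays are called knockout-labelled. None of the 11 defining markers of choroid plexus epithelium lay under the lower quartile of probe sets on all arrays. Of these, 8 were lower in the knockout-labelled arrays and 1 was higher, which is Otx2 itself. Ttr, the brightest of the list, did not pass, at 14.17 ± 0.03 against 14.21 ± 0.04 in wildtype (limma adjusted p = 0.647). Igf2 did not pass either (log2 fold change 0.11, adjusted p = 0.227). The summed level of the 11 markers, which includes both, was 15.99 to 16.08 log2 units in wildtype and 15.59 to 15.72 in the knockout-labelled group. Other marker lists held called genes too. That of multiciliated cells had 9 of 11 lower, and whether it marks cells apart from the epithelium was not tested. Stroma and mural cells had 8 of 12 higher and 1 lower. Macrophages had 7 of 10 higher and 0 lower, with summed levels of 12.87 to 13.34 against 12.16 to 12.39 in wildtype. Of 10 endothelial markers 3 were lower and 1 higher, and of 10 skeletal muscle markers 2 were higher and 0 lower. The summed level of the muscle markers varied widely in the knockout-labelled arrays, from 9.23 to 11.48, against 9.01 to 9.47 in wildtype. The part of these shifts in the values below was not tested.

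Chaperones bind unfolded stretches of other proteins and keep them from aggregating. The Hsp70 proteins (Hspa genes) do so in cycles of ATP hydrolysis, started by J-domain proteins (Dnaj genes) and ended by nucleotide exchange factors, while Hsp90 completes folding of kinases and receptors and the small heat shock proteins (Hspb genes) hold unfolded proteins without ATP. In the endoplasmic reticulum, where a secretory epithelium such as the choroid plexus folds the proteins it exports, Hspa5 (BiP), Hsp90b1 (Grp94) and the disulfide isomerases (Pdia genes) do this work. Cytosolic chaperones are induced by heat shock factor through heat shock elements in their promoters, and those of the endoplasmic reticulum by the unfolded protein response through ER stress elements.

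Promoter sequences from RefSeq (mouse assembly GRCm38.p6) were matched by symbol to 62 of the 75 genes, in 79 windows of 250 bases before to 50 bases after a start site. Each motif was searched on both strands, with overlapping matches allowed. The ER stress element, CCAAT followed after 9 bases by CCACG, occurred in 4 of these windows, against 0.119% of all 32851 windows of that length. The genes were Hspa5, Hsp90b1, Pdia6 and Dnajc3. These sites are shown because they set side by side the genes of the endoplasmic reticulum whose levels are compared below, and capitals mark the fixed letters of the motif.
Hspa5 (chr2:34772015-34772053, plus strand): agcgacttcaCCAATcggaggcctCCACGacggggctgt
Dnajc3 (chr14:118937817-118937855, plus strand): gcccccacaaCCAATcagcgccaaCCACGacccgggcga
Pdia6 (chr12:17266481-17266519, plus strand): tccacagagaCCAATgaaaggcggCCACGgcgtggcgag
Hsp90b1, first site (chr10:86705628-86705666, minus strand): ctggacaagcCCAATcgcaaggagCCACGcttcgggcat
Hsp90b1, second site, motif on the other strand (chr10:86705523-86705561, minus strand): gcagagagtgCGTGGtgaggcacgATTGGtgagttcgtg

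A heat shock element of 3 units, GAA, TTC and GAA (or TTC, GAA and TTC) each 2 bases apart, occurred in 6 windows of 4 genes, Hspd1, Hspe1, Hsph1 and Dnajb6, against 0.603% of all windows. Hspd1 and Hspe1 start head to head and share theirs, in which overlapping matches join. Overlapping windows of Dnajb6 hold the same site, as do those of Hsph1, so the windows are not separate sites. None of the 4 genes passed the test between the groups.
Hspd1 (chr1:55088049-55088086, minus strand): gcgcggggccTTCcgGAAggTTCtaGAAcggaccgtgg
Dnajb6 (chr5:29735842-29735874, plus strand): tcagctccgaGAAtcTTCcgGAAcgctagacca

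The core TAATCC, which Otx2 and its relatives bind, occurred in 1 window, that of Dnajb13, against 7.06% of all windows. It is shown because Dnajb13 had the second largest fall below. The 250 bases before its start site, with the match on the other strand (GGATTA) in capitals, are as follows.
Dnajb13 (chr7:100514816-100515065, minus strand): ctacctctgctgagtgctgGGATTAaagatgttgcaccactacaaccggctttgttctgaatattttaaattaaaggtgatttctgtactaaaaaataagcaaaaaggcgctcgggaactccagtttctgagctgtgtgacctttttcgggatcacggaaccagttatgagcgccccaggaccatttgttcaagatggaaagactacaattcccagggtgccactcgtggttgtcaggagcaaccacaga

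The other motifs searched were TGACGTGG, an unfolded protein response element (1 window, of Dnajc25, against 0.676% of all), TGACGTCA, a cyclic AMP response element (1 window, of Dnajc27, against 1.79%), and the X-box of RFX factors in a loose form (6 windows of 5 genes, against 4.62%). A match describes letters in a window and is not a measured binding site.

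Between the groups, 18 of the 75 genes passed the test (24.0%), where 19.6% of all 18193 genes did (limma, Benjamini-Hochberg adjusted p under 0.05). Of the 18, 15 were lower (20.0% of the 75, against 11.7% of all genes) and 3 higher (4.00%, against 7.84%). Most of these probe sets are bright, and calls were more frequent among bright genes: 58 of the 75 lie above the median level of all genes. Of those 58, 17 were called (29.3%), and of the 9096 genes above the median 28.3% were. The share called in either direction was thus near that of genes above the median, which were not matched to the members in level any further. By direction, lower calls made up 25.9% of the 58 and 16.8% of the genes above the median, and higher calls 3.45% and 11.5%. No test was made of these differences in share. Of the 17 dimmer members 1 was called, Dnajc6.

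**Figure D1:**
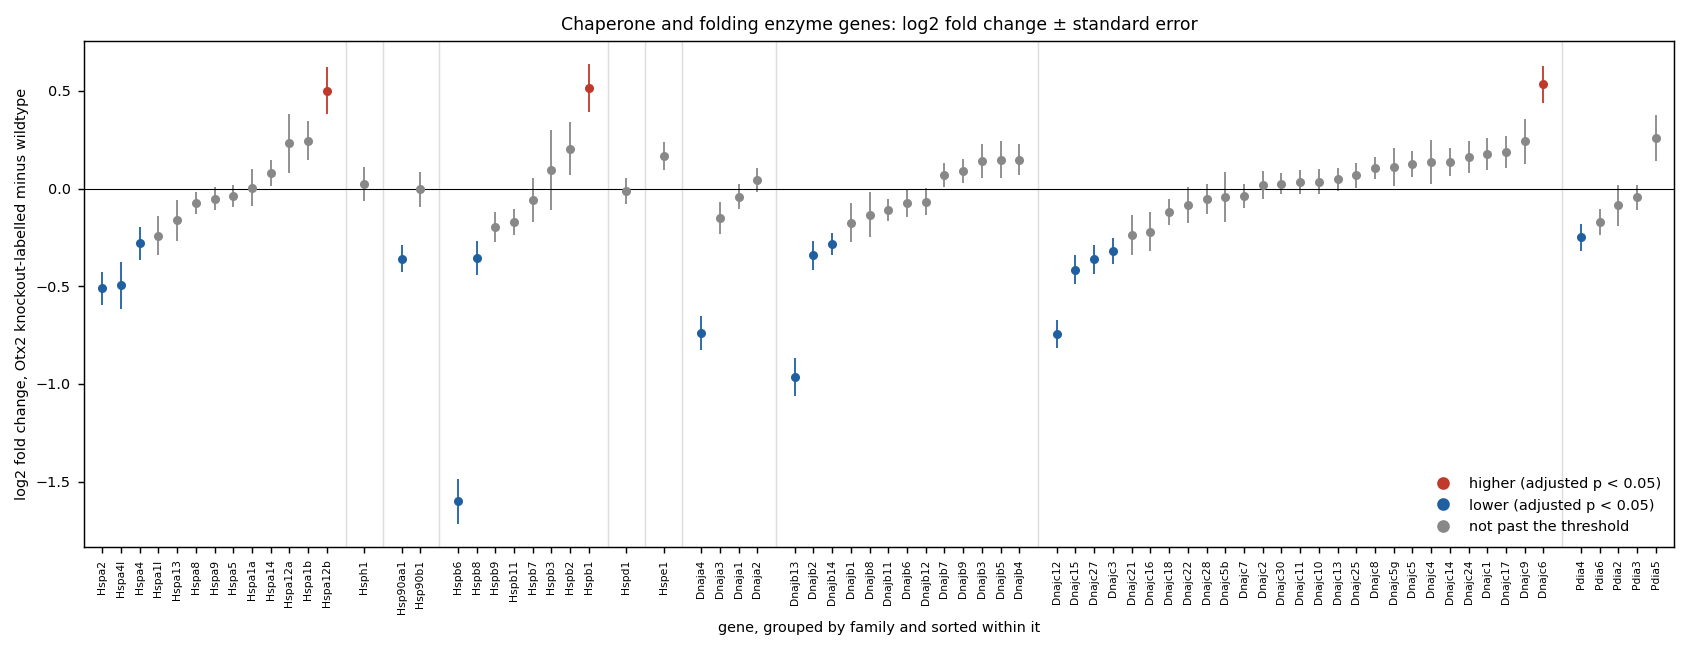
Log2 fold change (knockout-labelled minus wildtype, vertical axis) with its standard error for each of the 75 genes, grouped by family along the horizontal axis; blue points are the 15 genes called lower, red points the 3 called higher and grey points the 57 that did not pass. Most points lie close to 0, and Hspb6 (-1.60) stands lowest.

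Sizes were small. The median log2 fold change of the 75 genes was -0.04, against 0.00 over all genes, and the range ran from -1.60 to 0.53. A fold change of at least 2 was reached by 1 called member, Hspb6, against 1.80% of all genes. In 23 of the 75 genes (30.7%) the groups did not overlap, 19 lower and 4 higher, against 24.3% of all genes (14.4% lower and 9.98% higher). These include all 18 called genes. The other 5, Hspb9, Hspb11, Dnajb11, Dnajc16 and Dnajc8, had log2 fold changes between -0.22 and 0.10 and did not pass.

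Among the 13 Hspa genes 3 were lower, 1 was higher and 9 did not pass (30.8% called, against 19.6% of all genes). Hspa8, the constitutive Hsc70 of the cytosol, read 13.06, 13.10, 13.02 and 13.04 log2 units in wildtype replicates 1 to 4 and 13.03, 12.99, 12.92 and 12.98 in the knockout-labelled ones, so the groups overlapped. Its log2 fold change was -0.07 (SE 0.05, limma adjusted p = 0.426). That probe set carries a mark for sequence shared with other transcripts. A dim probe set without it gave 0.45 (adjusted p = 0.0301 over all probe sets). The stress-inducible Hspa1a and Hspa1b are near-identical copies, whose signals cannot be fully separated. Hspa1a was at 6.38 ± 0.16 against 6.38 ± 0.12, and Hspa1b at 8.08 ± 0.03 against 7.83 ± 0.21 (SD, n = 4 each, adjusted p = 0.979 and 0.119).

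Hspa2, an Hsp70 best known from male germ cells, read 8.91, 9.09, 9.003 and 9.17 in wildtype and 8.37, 8.53, 8.66 and 8.58 in the knockout-labelled arrays. Every knockout-labelled array lay under every wildtype array, and the log2 fold change was -0.51 (SE 0.08, limma adjusted p = 0.00223). Hspa12b, a distant Hsp70 relative known from endothelium, moved the other way, from 7.17, 7.45, 7.04 and 7.52 to 7.66, 7.66, 7.92 and 7.94. The groups did not overlap and the log2 fold change was 0.50 (SE 0.12, adjusted p = 0.0175). Of 10 endothelial markers 1 was higher (Cdh5, 0.33) and 3 lower (Pecam1, Emcn and Plvap, at -0.27, -0.39 and -0.51). None lay under the lower quartile on all arrays, and their summed level was 12.45 to 12.67 in the knockout-labelled and 12.62 to 12.86 in the wildtype arrays. The part of these cells in the rise of Hspa12b was not tested.

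The exchange factors of the Hsp110 type fell in part. Hspa4l read 9.47, 9.37, 9.19 and 9.34 in wildtype and 8.77, 9.09, 8.54 and 8.998 in the knockout-labelled arrays. The log2 fold change was -0.50 (SE 0.12, limma adjusted p = 0.0169), and its 4 other probe sets were lower too, by -0.49 to -0.75. The call was lost without knockout-labelled replicate 1 (adjusted p = 0.0516). Hspa4 was at 10.40 ± 0.13 against 10.68 ± 0.10, a log2 fold change of -0.28 (adjusted p = 0.0407). Leaving out single arrays undid this call 6 times in 8, the exceptions being knockout-labelled replicate 2 and wildtype replicate 3 (highest adjusted p 0.0969). Averaging its probe sets undid it as well (-0.05, adjusted p = 0.562). Hsph1, the third of the type and inducible by heat, gave 0.02 (adjusted p = 0.906).

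J-domain proteins formed the largest group, 44 genes, of which 8 were lower, 1 was higher and 35 did not pass. The share called was 20.5%, against 19.6% of all genes. Dnaja4, a cytosolic partner of Hsp70, read 9.88, 10.04, 9.88 and 10.04 in wildtype and 9.01, 9.34, 9.21 and 9.33 in the knockout-labelled arrays. The groups were well apart, with a log2 fold change of -0.74 (SE 0.09, limma adjusted p = 0.000344), and both other probe sets fell, by 0.72 and 0.50. The 3 other Dnaja genes, which include the abundant cytosolic Dnaja1 and Dnaja2 and the mitochondrial Dnaja3, lay between -0.15 and 0.04 and did not pass. Dnaja1 changed by -0.04 from a wildtype level of 12.04 ± 0.04. For Dnaja2, at 11.36 ± 0.08 against 11.32 ± 0.04, a dim further probe set was higher by 0.52 (adjusted p = 0.0292).

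Dnajb13, a J-domain protein of the radial spokes in motile cilia, had the second largest fall of all 75 genes. It read 10.39, 10.42, 10.49 and 10.52 in wildtype and 9.18, 9.63, 9.56 and 9.58 in the knockout-labelled arrays. Knockout-labelled replicate 1 lay lowest, and the groups did not overlap. The log2 fold change was -0.96 (SE 0.10, limma adjusted p = 0.000162), a fold of 1.95. Markers of multiciliated cells moved with it: 9 of 11 measured markers were lower and 0 higher, with a median of -0.99. Their summed level was 11.59 to 11.94 in the knockout-labelled arrays and 12.78 to 12.89 in wildtype, 1 marker lay under the lower quartile on all arrays, and Foxj1, the regulator of motile cilia, changed by -0.99. The list of choroid plexus epithelium had a median of -1.01. Whether the lists mark separate cells, and the part of such cells in the fall of Dnajb13, was not tested. The single TAATCC match of Dnajb13 lies at position -231 from the start site (in the sequence shown above). That core occurred in 1 of the 79 windows of these genes and in 7.06% of all windows, and its part in the fall was not tested.

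The other Dnajb genes that passed were Dnajb2, a J protein rich in neurons (-0.34, limma adjusted p = 0.0108), and Dnajb14, a membrane protein of the endoplasmic reticulum (-0.28, adjusted p = 0.00711). Dnajb1, the main heat-inducible J protein, did not pass, at 10.25 ± 0.16 against 10.42 ± 0.16 (SD, n = 4 each, adjusted p = 0.293). A dimmer probe set of Dnajb1 was lower by 0.30 (adjusted p = 0.0122 over all probe sets), as was one of Dnajb12, a partner of Dnajb14 (-0.33, adjusted p = 0.0187), whose brightest probe set gave -0.07. The 10 Dnajb genes that did not pass lay between -0.17 and 0.15.

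Of the 27 Dnajc genes, whose proteins share little beyond the J domain, 4 were lower and 1 higher. The share called was 18.5%, against 19.6% of all genes. Dnajc12, a cochaperone of the aromatic amino acid hydroxylases, read 9.46, 9.48, 9.64 and 9.64 in wildtype and 8.73, 8.81, 8.93 and 8.78 in the knockout-labelled arrays. The groups stood apart by more than their spread, and the log2 fold change was -0.74 (SE 0.07, limma adjusted p = 0.000111). Dnajc15, a J protein of the mitochondrial inner membrane, read 10.07, 10.001, 10.15 and 10.26 against 9.64, 9.67, 9.71 and 9.80. Its log2 fold change was -0.42 (SE 0.07, adjusted p = 0.00331).

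Dnajc27, which joins a Rab-like GTPase domain to a J domain, read 7.76, 7.66, 7.70 and 7.85 in wildtype and 7.42, 7.23, 7.48 and 7.39 in the knockout-labelled arrays. The log2 fold change was -0.36 (SE 0.07, limma adjusted p = 0.00715), and its remaining probe set, which is dim, gave -0.19 (adjusted p = 0.256 without shared probe sets). Dnajc6, the clathrin-uncoating protein auxilin of nerve terminals, was the gene that rose. It read 6.96, 6.89, 6.60 and 6.77 in wildtype and 7.24, 7.46, 7.42 and 7.24 in the knockout-labelled arrays, without overlap. The log2 fold change was 0.53 (SE 0.09, adjusted p = 0.00309), but 0.16 with the mean of its probe sets (adjusted p = 0.0737). That mean takes in probe sets at 2.57, 2.93 and 3.45 log2 units, under the lower quartile of 4.33. These gave -0.09, -0.05 and 0.25, the last called higher (limma adjusted p = 0.0354 over all probe sets). Of 10 neuron markers 0 passed (limma), with a median log2 fold change of 0.34, 9 above 0 and 1 below. Spread within the groups was wide, widest for Ina (SD 0.93 in the knockout-labelled and 1.01 in the wildtype arrays). None of the markers lay under the lower quartile on all arrays. Their summed level ranged from 11.13 to 12.90 in the knockout-labelled and from 10.83 to 12.55 in the wildtype arrays, and its part in the rise of Dnajc6 was not tested.

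**Figure D2:**
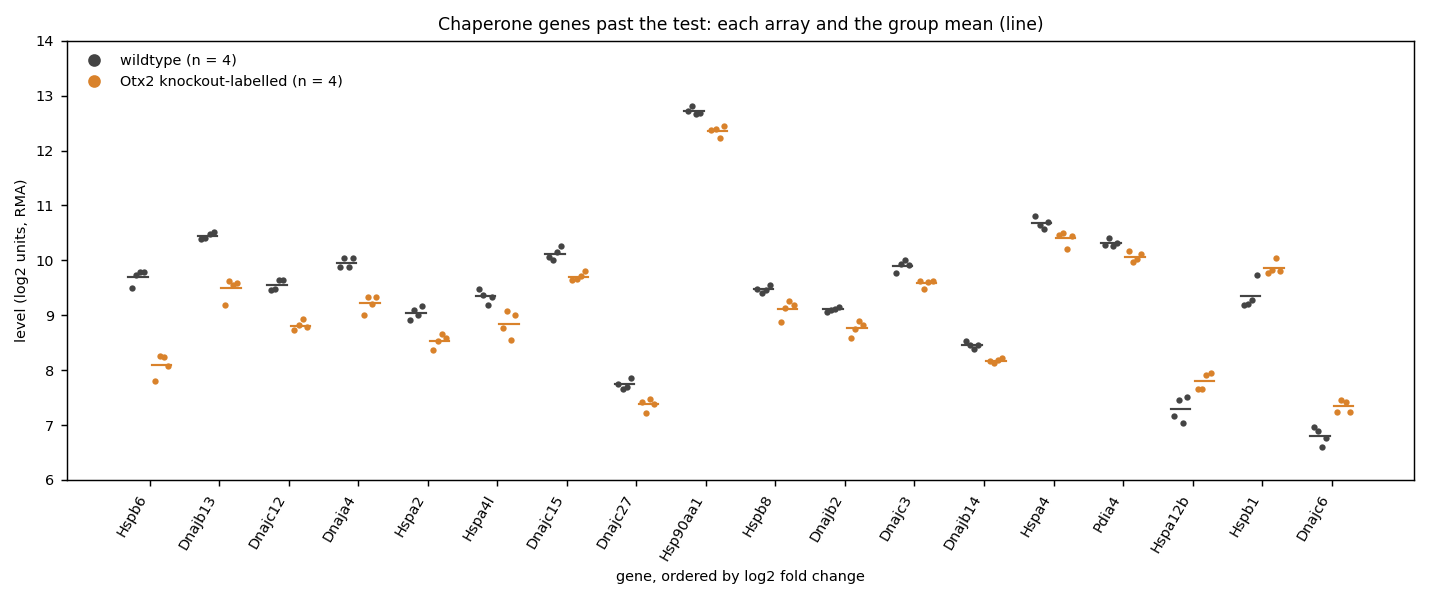
Log2 level (vertical axis) of the 18 called genes in each of the 8 arrays, with a line at each group mean (4 wildtype arrays in dark grey, 4 knockout-labelled arrays in orange), ordered by log2 fold change. In each gene shown, the points of one group lie clear of those of the other, narrowly for Hspb1 (9.73 in the highest wildtype array, 9.78 in the lowest knockout-labelled array).

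Of the 2 Hsp90 genes measured 1 was lower. Hsp90aa1, the inducible cytosolic form, read 12.72, 12.81, 12.66 and 12.68 in wildtype and 12.37, 12.39, 12.22 and 12.44 in the knockout-labelled arrays. Although the difference is small, the groups did not overlap, and the log2 fold change was -0.36 (SE 0.07, limma adjusted p = 0.00492). Of its 4 other probe sets 3 were lower, by 0.27, 0.40 and 0.71. Hsp90b1 of the endoplasmic reticulum did not pass, at 11.77 ± 0.11 against 11.78 ± 0.14 (adjusted p = 0.981). Whether the genes differ in their response was not tested.

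The small heat shock proteins held both the largest fall and 1 of the 3 rises. Hspb6, known as Hsp20 and abundant in smooth and heart muscle, read 9.49, 9.73, 9.79 and 9.78 in wildtype and 7.80, 8.27, 8.25 and 8.07 in the knockout-labelled arrays. The groups were more than 1 log2 unit apart at their nearest arrays, and the log2 fold change was -1.60 (SE 0.11, limma adjusted p = 2.33e-05), a fold of 3.04. It kept its direction and call in every fit without 1 array, between -1.67 and -1.50. Markers of stroma and mural cells were higher in the same arrays in 8 of 12 cases and lower in 1, with summed levels of 14.63 to 14.86 against 14.19 to 14.27 in wildtype and none under the lower quartile on all arrays. The mural and smooth muscle genes of that list differed among themselves: Tagln was higher by 1.17 (limma adjusted p = 0.00226), Rgs5 changed by -0.34 (adjusted p = 0.0221), and Acta2, Myh11 and Cspg4 gave 0.93, 0.02 and -0.01 without passing. The part of these cells in the fall of Hspb6 was not tested.

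Hspb1 (Hsp27), which binds actin and unfolded proteins, read 9.18, 9.20, 9.28 and 9.73 in wildtype and 9.78, 9.83, 10.04 and 9.81 in the knockout-labelled arrays. Wildtype replicate 4 lay close to the knockout-labelled arrays. The log2 fold change was 0.52 (SE 0.12, limma adjusted p = 0.0164), and the second probe set gave 0.49. Without wildtype replicate 2 or 3 the call was lost narrowly (adjusted p = 0.0515 and 0.0511). Hspb8, which works with Bag3 in selective autophagy, was lower, at 9.11 ± 0.17 against 9.47 ± 0.06 (log2 fold change -0.36, adjusted p = 0.0184, and 0.0574 without wildtype replicate 4). The other 5, Hspb2, Hspb3, Hspb7, Hspb9 and Hspb11, lay between -0.20 and 0.21 and did not pass. Hspb3 had the widest spread of all 75 genes in both groups (SD 0.38 and 0.33).

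The mitochondrial chaperonin pair did not pass. Hspd1 (Hsp60) read 11.58, 11.54, 11.45 and 11.54 in wildtype and 11.60, 11.43, 11.43 and 11.60 in the knockout-labelled arrays, and its partner Hspe1 (Hsp10) was at 11.54 ± 0.10 against 11.37 ± 0.08. Their log2 fold changes were -0.01 and 0.16 (limma adjusted p = 0.920 and 0.147). With the mitochondrial Hsp70 Hspa9 (-0.05) and the J proteins there, 1 of 8 mitochondrial members was lower, Dnajc15, and 0 were higher. The share called was 12.5%, against 19.6% of all genes.

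Of 13 members resident in the endoplasmic reticulum 2 were lower, 0 higher and 11 did not pass. The share called was 15.4%, against 19.6% of all genes, and the median of these members of the endoplasmic reticulum was -0.04. Hspa5, the master chaperone there, read 12.16, 12.26, 12.12 and 12.18 in wildtype and 12.19, 12.14, 12.13 and 12.10 in the knockout-labelled arrays. These ranges overlap, and the log2 fold change was -0.04 (SE 0.06, limma adjusted p = 0.722). Dnajc3, which assists Hspa5 and is known as an inhibitor of the kinase PERK, was at 9.58 ± 0.06 against 9.90 ± 0.10, a log2 fold change of -0.32 (adjusted p = 0.00954), and 2 of its 4 other probe sets were also called lower. Pdia4, a disulfide isomerase, read 10.28, 10.41, 10.26 and 10.32 in wildtype and 10.17, 9.96, 10.02 and 10.11 in the knockout-labelled arrays, without overlap but close together. Its log2 fold change was -0.25 (SE 0.07, adjusted p = 0.0286). The Pdia4 call was lost with the replicate number as a block (adjusted p = 0.0588), on leaving out knockout-labelled replicates 2 and 3, or wildtype replicates 2 and 4, each singly (highest adjusted p 0.0892) and with the mean of its probe sets (-0.12, adjusted p = 0.206).

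Of the 4 genes with an ER stress element, Dnajc3 was thus called, while Hspa5, Pdia6 (-0.17, limma adjusted p = 0.108) and Hsp90b1 were not. Hspa13, a microsomal Hsp70 relative, gave -0.16 (adjusted p = 0.339), and 1 of its dimmer probe sets was lower by 0.43 (adjusted p = 0.0212 over all probe sets). Pdia3 and Pdia5 lay at -0.04 and 0.26 and did not pass.

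The 10 members listed as heat-inducible in the cytosol split into 2 lower (Hsp90aa1 and Hspb8), 1 higher (Hspb1) and 7 not called, with a median of -0.02. Among 8 members of synapses and vesicles 2 were lower (Dnajc27 and Dnajb2) and 1 higher (Dnajc6), with a median of 0.08. Of these lists 30% and 37.5% were called, against 19.6% of all genes and 28.3% of those above the median level. Each share rests on few genes, and the lists were not tested.

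**Figure D3:**
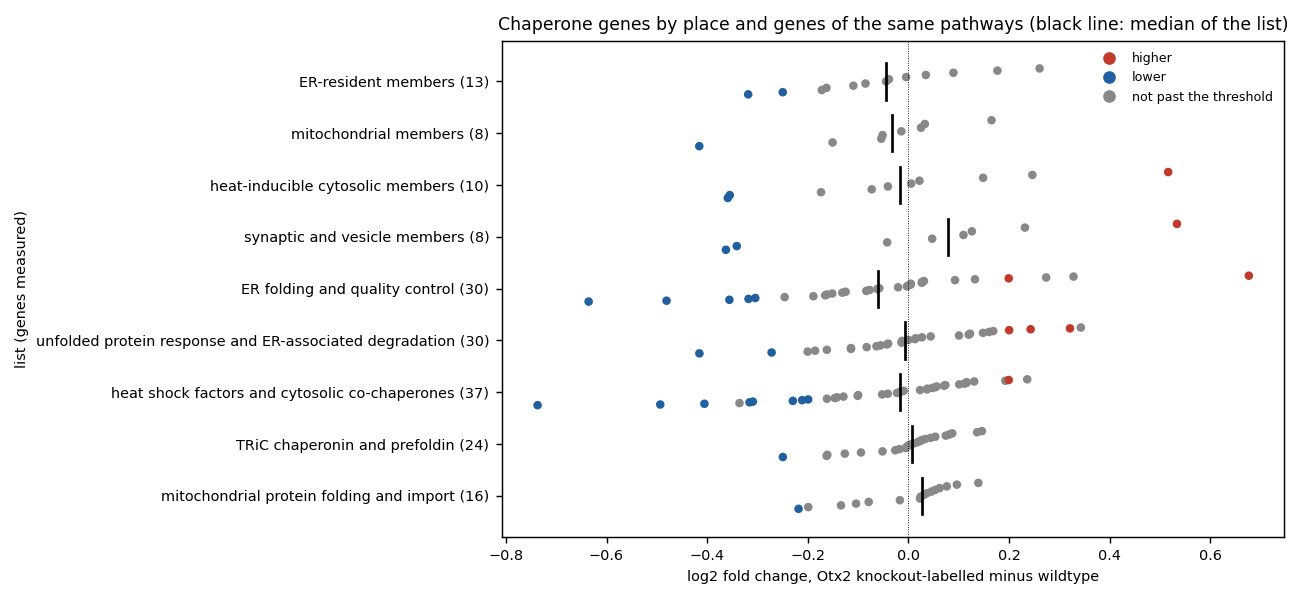
Log2 fold changes (horizontal axis) of the chaperone genes by place and of other genes of the same pathways, 1 point per gene and 1 row per list with the number measured in brackets; red and blue mark genes called higher and lower, and the black line is the list's median. All 9 medians lie between -0.06 and 0.08.

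Other genes of protein folding, from lists that hold none of the 75, were called less often. Of 137 genes 6 were higher and 17 lower (16.8% called, against 24.0% of the 75 and 19.6% of all genes). Their median level was 9.46 log2 units, against 7.29 over all genes, and 28.3% of the genes above the median level were called. These differences in share were not tested. Of 30 genes for folding and quality control in the endoplasmic reticulum 5 were lower and 2 higher (23.3% called), with a median of -0.06. Tmx1, a membrane-bound thioredoxin-like oxidoreductase, went from 11.37 ± 0.04 to 10.73 ± 0.04 (log2 fold change -0.64, limma adjusted p = 6.25e-05). Manf, a secreted ER stress protein, changed by -0.48 (adjusted p = 0.00103) and Creld2, an ER stress-inducible protein, by -0.30. The prolyl isomerase Fkbp7 was higher by 0.68 (adjusted p = 0.00530) and P4hb, the founding disulfide isomerase, by 0.20 (adjusted p = 0.0439), a call that 7 of 8 omissions of a single array undid (highest adjusted p 0.114), as did the replicate block (0.0879) and centring the arrays on their medians (0.0903).

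Among 30 genes of the unfolded protein response and ER-associated degradation 3 were higher and 2 lower. The share called was 16.7%, against 19.6% of all genes, and the median was -0.01. Mbtps2, a protease that cleaves the ER stress sensor Atf6, changed by -0.42 (limma adjusted p = 0.00106), and Mbtps1, the protease that cuts before it, by 0.24 (adjusted p = 0.0429). Edem1, which hands misfolded glycoproteins to degradation, was higher by 0.32 (adjusted p = 0.00442), Ppp1r15a, the stress-induced phosphatase subunit Gadd34, was lower by 0.27 (adjusted p = 0.0281) and Atf4 higher by 0.20 (adjusted p = 0.0376). The Mbtps1 and Atf4 calls were each undone by 7 of 8 single omissions (highest adjusted p 0.113 and 0.109), by the replicate block (0.0767 and 0.0590) and by centring the arrays (0.0758 and 0.0751), and the Ppp1r15a call by 6 omissions (0.0806). With the mean of its probe sets Mbtps1 gave -0.01. The other 25 genes of the list did not pass. Among these, and named after their values were seen, Xbp1 gave 0.17, Atf6 -0.16, Ddit3 0.12 and Herpud1 0.12.

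Of 37 heat shock factors and cytosolic cochaperones 8 were lower and 1 higher (24.3% called, against 19.6% of all genes), with a median of -0.02. Hsf2, a heat shock factor active in development, went from 6.95 ± 0.13 to 6.21 ± 0.17 (log2 fold change -0.74, limma adjusted p = 0.000707). Hsf4 changed by -0.49 (adjusted p = 0.00303), at a level near 5 log2 units that is close to the lower quartile of probe sets (4.33), and the Hsp90 cochaperone Nudc by -0.41 (adjusted p = 0.00186). Sgta, which guides membrane proteins, was higher by 0.20 (adjusted p = 0.0384), a call undone by 7 of 8 single omissions (highest adjusted p 0.0993), the replicate block (0.0651) and centring (0.0740). Stip1 and St13, the cochaperones Hop and Hip, were lower by 0.32 and 0.21, and were named after their values were seen.

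The cytosolic chaperonin TRiC and its helpers gave 1 lower gene of 24 (4.17%, against 19.6% of all genes), with a median of 0.01. It was the prefoldin-like Uxt (-0.25, limma adjusted p = 0.0491). That call held in 1 of 8 single omissions, that of knockout-labelled replicate 4 (highest adjusted p 0.132). Mitochondrial folding and import gave 1 lower gene of 16 (6.25%), the unfoldase Clpx (-0.22, limma adjusted p = 0.0206), with a median of 0.03. The Clpx call was lost without wildtype replicate 3 or 4 (highest adjusted p 0.0651) and with the mean of its probe sets (-0.02).

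The 75 genes are read by 177 probe sets, and 48 genes have more than 1. Of 11 called genes with several, 7 had a further probe set called the same way and 0 one called the opposite way (limma over all 34945 probe sets). Conversely, 5 genes not called had another probe set that was: Dnaja2, Hspa8, Dnajb1, Dnajb12 and Hspa13. Of these, the first pair was higher and the others lower.

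**Figure D4:**
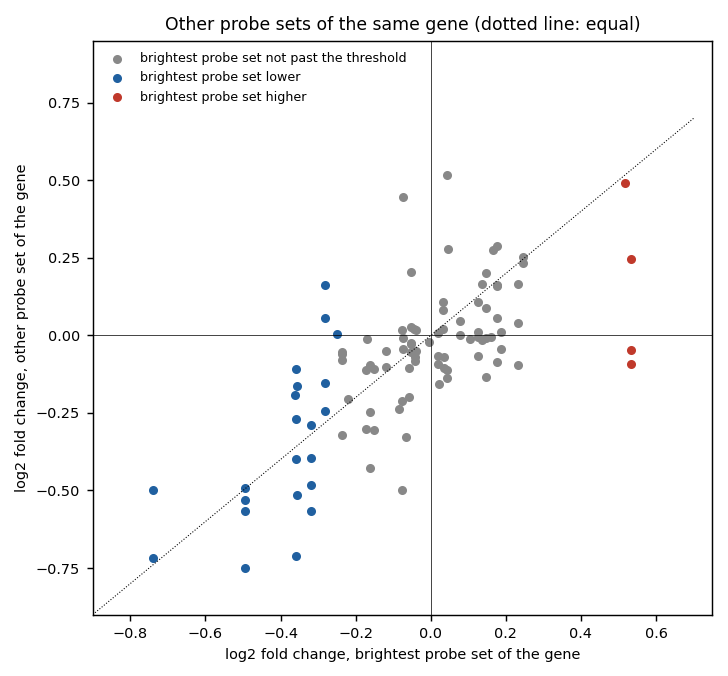
Log2 fold change of each further probe set (vertical axis) against that of the brightest probe set of the same gene (horizontal axis), for the 48 genes with several; colour marks the call of the brightest probe set and the dotted line equality. Blue points of called genes lie mostly in the lower left, while the further probe sets of Dnajc6, at 0.53 on the horizontal axis, spread from -0.09 to 0.25.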

How the data were processed

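Total RNA from 8 arrays was analysed. The deposited values are RMA summaries on the log2 scale, 1 per probe set, which the authors computed, as the submitters' processing notes state. No software version is named there. RMA evens out the distributions of the arrays, so a change in total RNA cannot be seen, and the number of arrays limits the precision.

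Of 45101 probe sets, 34945 named 1 gene in the platform annotation, 932 several and 9160 none listed, and 64 were controls. Symbols and identifiers of all 75 genes matched the RefSeq table. Genotype was the only term in limma 3.58.1 (R 4.3.3, two-sided, no filter), fitted on the brightest probe set of 18193 genes and adjusted over all of them. The procedure was tested on simulated data. SE is limma's moderated standard error. The labels call the arrays biological replicates and do not say whether each is 1 embryo or a pool. Summed levels are log2 of summed linear values of a marker list.

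Members and lists were chosen with earlier results of these data known. Values per array are given for the called gene with the smallest p in each family and direction and for the 12 called genes with the largest change. Genes not called are named for the 6 brightest and where another probe set passed. Others (Hspa1a, Hspa1b, Hsph1, Hspa9, Dnaja3, Pdia3, Pdia5, Pdia6 and those whose groups did not overlap) were named after their values were seen, to complete a family or place. Of each pathway list up to 3 called genes per direction are named. Other list entries are not analysed here. Markers of erythroid cells (1 of 9 lower) and skeletal muscle (2 of 10 higher) were also read.

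Same-numbered arrays of the groups deviated together (correlations 0.131, 0.232, 0.160 and 0.223 across genes, all above 0.1), so by that limit the replicate number was used as a block in a second fit. Pairs with different numbers ranged from -0.296 to 0.294, and 3 of the 8 arrays correlated best with another number. No label says what a number marks or ties an array to a litter, so litter itself was not a term in any fit.

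Alternatives were the replicate block, array weights, a trended robust prior, the mean of probe sets, omitting probe sets marked as shared, genes above the median level, centring or renewed quantile normalization of the arrays, stricter thresholds, and leaving out each array.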

Additional observations from a re-analysis of the deposited data

Results flagged for a closer look

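In 150 groups of 4 arrays (75 genes, 2 genotypes), 6 held an array far from the other 3, measured as its gap to the nearest over the group's range, where chance flags about 1 in 20. Dnajb13 was at 9.18 in knockout-labelled replicate 1 and at 9.56 to 9.63 in the others (ratio 0.839). Dnajc3 was at 9.49 in knockout-labelled replicate 2 and at 9.61 to 9.62 in the others (0.933). Both genes kept their call in each of the 8 fits without 1 array. Dnajc17, a splicing-related J protein that did not pass, had a low array in both groups: 9.36 in knockout-labelled replicate 2 against 9.61 to 9.65 (0.855), and 9.22 in wildtype replicate 1 against 9.41 to 9.44 (0.892). Dnajb9 was at 9.87 in knockout-labelled replicate 4 against 9.74 to 9.76 (0.885). Dnajc10 was at 9.43 in wildtype replicate 2 against 9.40 to 9.41 (0.889), a gap of little size.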

How the results depend on the processing

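The counts over the 75 genes, 3 higher and 15 lower, ranged from 2 to 5 and from 12 to 15 in the fits without 1 array, the 5 without knockout-labelled replicate 2. At an adjusted p under 0.01 they were 1 and 10, and with a fold change of at least 1.5, 0 and 4. Of the 18 calls, 13 held in all 8 fits without 1 array and 11 in every alternative apart from the stricter thresholds. With the replicate number as a block 17 held (Pdia4 did not) and 1 other gene was called, with 3 higher and 15 lower. Among the lists, that block moved the called genes of the unfolded protein response from 5 to 3 and of the members of the endoplasmic reticulum from 2 to 1, and it changed no other list count by over 1.5 times.

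Without 1 array the called genes numbered 5 to 9 for folding in the endoplasmic reticulum (7 in the main setting), 2 to 5 for the unfolded protein response, 4 to 7 for heat shock factors and cochaperones (9), 0 to 1 for TRiC, 0 to 1 for mitochondrial folding, and 1 to 3, 1, 2 to 3 and 3 for the members of the endoplasmic reticulum, mitochondria, heat-inducible and synaptic lists. The unfolded protein response gave 2 or 3 on omitting any array but knockout-labelled replicate 2. Heat shock factors gave 4 or 5 without wildtype replicate 1, 2 or 4, members of the endoplasmic reticulum 1 without knockout-labelled replicate 3 or wildtype replicate 2 or 4, mitochondrial folding 0 without wildtype replicate 3 or 4, and TRiC 0 on omitting any array but knockout-labelled replicate 4. Over all genes, 14.6% to 21.6% were called in the fits without 1 array, against 19.6% in the main setting. At an adjusted p under 0.01 these 9 counts were 4, 2, 4, 0, 0, 1, 1, 1 and 2 (10.7% of all genes). With the fold minimum they were 2, 0, 1, 0, 0, 0, 0, 0 and 0 (6.6% of all genes). Genes above the median level gave 11 for folding in the endoplasmic reticulum, 8 for the unfolded protein response and 2 for mitochondrial folding. There fewer genes were tested, and 36% of them were called. The trended robust prior gave 11 and 2 for the first and last of these. Array weights gave 0 for TRiC. The mean of probe sets gave 2 for TRiC, 0 for mitochondrial folding and 2 for the mitochondrial members, and omitting shared probe sets gave 1 for the synaptic members; the cause was not tested. Of the called genes among 44 named, 1 reversed, Mbtps1, at -0.013 with the mean of probe sets, an average that takes in its other probe sets. Of those not called, 4 changed sign. Hspa8 gave 0.080 with the mean of probe sets and 0.45, now called (limma adjusted p = 0.0266), without shared probe sets, which leaves the gene to another probe set. Dnaja2 gave -0.11 without shared probe sets. Hsp90b1 gave 0.022 and Hspd1 0.0077 after quantile normalization, Hspd1 gave 0.0019 with array weights, and without 1 array they ranged from -0.059 to 0.044 and from -0.042 to 0.014. No scaling moved the median of all genes by over 0.1 log2 units.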
